A study of Mus musculus with 17 samples.

Results

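The genes described here are 44 mouse genes of the ATF4 stress response and of amino acid supply, measured by RNA sequencing in pancreatic stellate cells under 4 media. They were taken by symbol from a list of known ATF4 targets, serine and asparagine synthesis enzymes, amino acid transporters and cytosolic tRNA synthetases, and all 44 were found among 35896 gene IDs. Of these 44, 13 are stress regulators and effectors, 10 are amino acid synthesis enzymes, 9 are amino acid transporters and 12 are cytosolic tRNA synthetases. The cells were wild-type murine stellate cells on a C57BL/6J background, of the lines PSC4 (passages 23 to 25) and PSC5 (passages 27 and 28). All were embedded in Matrigel, a basement membrane extract that sets as a gel, for 4 days of treatment. The control medium had 5 libraries, and medium with 20 ng/mL TGF-beta had 4. Medium conditioned by pancreatic tumour organoids (CM) had 4 libraries, and CM to which 300 nM neratinib was added had 4. Neratinib irreversibly blocks kinases of the ERBB receptor family. No library had neratinib in control medium. The conditioned media carried the codes T6 (replicate 2) and T8 (replicate 1), whose meaning the labels do not give. The labels do not say that the libraries came from separate animals, so the p-values measure the spread between libraries of 2 lines.

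ATF4 is a transcription factor whose protein is made when the translation factor eIF2 is phosphorylated by one of several stress-sensing kinases, among them GCN2, which senses uncharged tRNA, and PERK, which senses unfolded protein in the endoplasmic reticulum. ATF4 mRNA carries upstream reading frames that let it be translated while most other messages are held back. With C/EBP partners it binds the C/EBP-ATF response element and turns on genes that make, import and charge amino acids, together with the feedback genes of the response. Growth factor signalling through mTORC1 is also known to raise ATF4. mRNA levels do not report eIF2 phosphorylation or ATF4 protein, neither of which was measured here. In bulk RNA a change in RNA per cell and a change in the mixture of cells cannot be told apart.

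Library totals lay between 22168953 and 29421447 counts, and every member passed the filter on low counts, with at least 48 counts in each library. Values are CPM, counts scaled to a common library size with TMM factors. The 10 stellate and fibroblast markers all had more than 3 counts in each library, although Des, the desmin gene long used to mark stellate cells, did not exceed 3.71 CPM. Their sum was 4765 to 6493 CPM in control, 9631 to 16462 CPM with TGF-beta, 5438 to 6564 CPM in CM and 4296 to 6225 CPM with neratinib. Single markers moved in opposite directions under these sums. Dcn was at 137 to 233 CPM in control and 901 to 2203 CPM with neratinib, and Col1a2 at 590 to 1161 and 280 to 480 CPM. Of 6 macrophage markers Adgre1 had no count in any library and Ptprc at most 1, but Cd14 moved with the media, at 11.2 to 15.6 CPM in control, 4.15 to 5.07 CPM with TGF-beta, 23.3 to 49.9 CPM in CM and 32.2 to 64.2 CPM with neratinib. Cd14 made up most of the sum of the 6, which was 12.2 to 16.3 CPM in control and 33.5 to 65.7 CPM with neratinib, and its part in the members' changes was not tested. Epithelial markers were low in control (10 genes summed to 4.79 to 8.43 CPM) and reached 156 CPM in CM and 311 CPM with neratinib, with the highest sums in the media of code T6; Esrp1 was at 0 counts in all control libraries. The replicate 1 libraries of PSC4, 3 in all and 1 in each group but TGF-beta, went against their line label over all genes tested. Their deviations from the group means correlated positively with those of PSC5 libraries of other groups (median r 0.195, 18 pairs) and negatively with those of the other PSC4 libraries (median r -0.309, 14 pairs). Genes are not independent replicates, so these r values describe the libraries only, and the count of members called in each comparison was also computed without these 3 libraries.

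Short stretches of the promoters are shown first, because the element that ATF4 binds can be read in many of them. The letters TGATGNAA, the core of the C/EBP-ATF response element, were searched on both strands from 250 bases before to 50 bases after each transcript start, in RefSeq promoters on GRCm38.p6. Of the members, 37 had a promoter in that table, and Cars, Lars, Nars, Slc1a5, Slc7a3, Slc7a5 and Wars did not. The core was found in 15 of 37 members (40.5%), against 2.86% of the 10444 tested genes with a promoter and 3.97% of all 32851 promoters. By class the share was 5 of 8 synthetases, 5 of 13 stress genes, 3 of 10 synthesis enzymes and 2 of 6 transporters. The members are known ATF4 targets, some of them through this element, so the share is a description of the list and no independent finding. Of the members with the core, Atf3 and Iars (at positions -110 and 8 from the start) are not shown. In these stretches, read along the gene, capitals mark the core in either orientation:
Trib3, chr2:152344034-152344051, minus strand: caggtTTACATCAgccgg
Chac1, chr2:119351029-119351076, plus strand: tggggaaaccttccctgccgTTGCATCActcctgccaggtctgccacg
Nupr1, chr7:126625553-126625600, minus strand: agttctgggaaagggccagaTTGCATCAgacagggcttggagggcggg
Vldlr, chr19:27216800-27216847, plus strand: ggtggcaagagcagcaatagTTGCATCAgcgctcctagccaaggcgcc
Asns, chr6:7693210-7693252, minus strand: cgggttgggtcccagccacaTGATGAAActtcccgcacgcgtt
Pycr1, chr11:120643824-120643871, minus strand: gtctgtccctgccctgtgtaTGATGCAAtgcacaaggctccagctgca
Got1, chr19:43524680-43524727, minus strand: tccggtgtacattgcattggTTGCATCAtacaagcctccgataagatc
Slc7a11, chr3:50443633-50443699, minus strand: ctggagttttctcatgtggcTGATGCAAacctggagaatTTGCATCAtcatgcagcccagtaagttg
Slc1a4, chr11:20332705-20332722, minus strand: ctgcgTTGCATCAtctcc
Aars, chr8:111033710-111033757, plus strand: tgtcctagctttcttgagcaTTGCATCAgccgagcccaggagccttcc
Gars, chr6:55037951-55037998, plus strand: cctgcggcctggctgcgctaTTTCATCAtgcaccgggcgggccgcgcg
Tars, chr15:11399659-11399693, minus strand: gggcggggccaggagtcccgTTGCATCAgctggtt
Yars, chr4:129189901-129189918, plus strand: tcagcTGATGCAAcccga
Slc7a11 held 2 copies facing each other, at positions -66 and -47 from the start, and Aars held a second copy at position 10. The copy of Asns, the asparagine synthetase gene, began at position -23. The extended core TGATGNAAT, which overlaps the shorter one, was found in 5 of 37 members (13.5%: Pycr1, Aars, Gars, Iars and Nupr1) and in 0.61% of tested genes. None of the 5 other cytosolic synthetases and none of the 14 mitochondrial synthetases with a promoter held the core in this window, which says only that these letters were not there.

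The neratinib group had the highest mean of the 4 groups for 42 of the 44 members. The exceptions were Got1, highest with TGF-beta, and Slc38a2, highest in control. For 32 members the order of the means was the same: CM plus neratinib, then TGF-beta, then CM, then control. In 25 members each of the 4 neratinib libraries lay above all 13 other libraries. These counts were made over the members only, so no share of all genes stands beside them. The plot of fitted changes shows the 3 treated groups against control for each member.

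**Figure D1:**
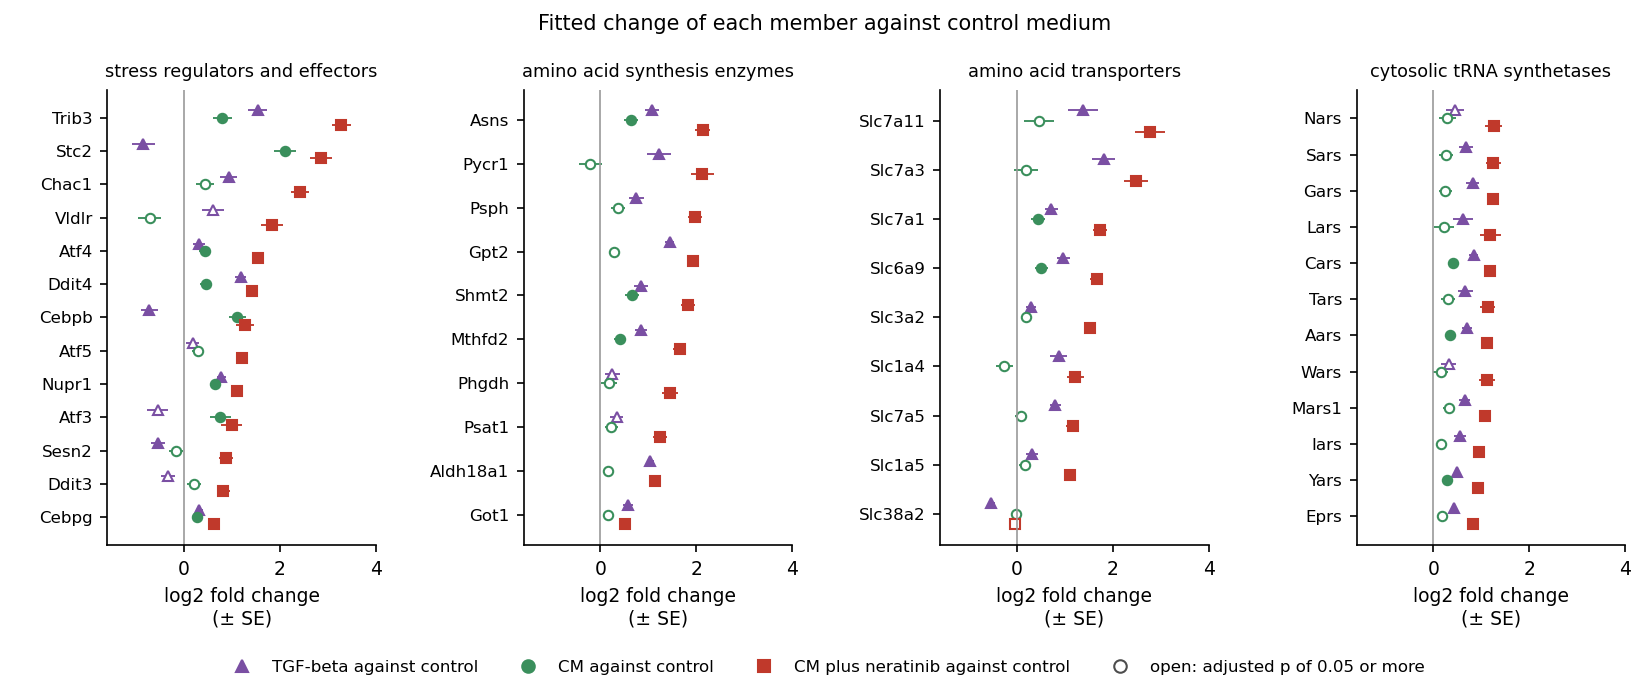
Fitted log2 fold changes (x axis, ± SE) of the 44 members (y axis, by class) for TGF-beta (triangles), CM (circles) and CM plus neratinib (squares), each against the same 5 control libraries; filled symbols passed an edgeR adjusted p of 0.05. The square is the rightmost symbol for every member except Slc38a2 and Got1, while triangles of the stress class fall on both sides of 0.

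The neratinib group was first set against control medium for the effect of conditioned medium and drug together. All members except Slc38a2 were higher: 43 of 44 were called higher and 0 lower (edgeR, adjusted p under 0.05), where 22.2% of the 13923 tested genes were called higher and 20.9% lower. At an unadjusted p under 0.05 the counts were also 43 and 0, and DESeq2 called 43 and 0. The median log2 fold change was 1.24 over the members and 0.00 over all genes, and 35 members at least doubled. The count was 43 without the libraries labelled PSC4 replicate 1 and with conditioned media of either code alone.

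Neratinib was then compared within CM, so that both groups had conditioned medium. Of the 44 members, 41 were called higher and 0 lower, against 10.8% and 9.63% of all tested genes. At an unadjusted p under 0.05 these counts were 41 and 0, and DESeq2 called 41 and 0. Atf3, Cebpb and Slc38a2 were the members not called. The median log2 fold change was 0.98, with 20 members at least doubled. The count was 17 in PSC4 alone, 14 in PSC5 alone, 25 with medium T8 alone and 38 with medium T6 alone, and 40 without the libraries labelled PSC4 replicate 1. These fits have fewer libraries. In this and the other comparisons the share of all genes called is given at most for the main fit and the replicate block. A lower count in another fit therefore cannot be read as particular to the members.

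TGF-beta was compared with control medium because the series uses it to make myofibroblast-like cells. Here 32 members were called higher and 4 lower, against 19.7% and 20.5% of all tested genes, with a median of 0.66 over the members and -0.02 over all genes. The 4 that fell were Stc2, Cebpb, Sesn2 and Slc38a2. Only 8 members doubled. With the replicate block, a fit that replaces the line by line and replicate number, Psat1, Phgdh, Nars and Vldlr were also called higher (36 in all). Without the libraries labelled PSC4 replicate 1 the counts were 35 and 6.

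CM was set against control medium for the effect of organoid conditioning without the drug. Of 44 members, 16 were called higher and 0 lower, against 7.05% and 7.14% of all tested genes, with a median of 0.29. At an unadjusted p under 0.05 there were 23 higher and 1 lower, and DESeq2 called 18 higher and 1 lower. With the replicate block the counts were 21 and 2, against 11.8% and 11.4% of all genes; Psph, Gpt2, Mars1, Tars and Eprs were added as higher, and Sesn2 and Vldlr as lower. The count of 16 rested on single libraries: it was 6 without PSC5 replicate 1 of CM, 8 without the CM library labelled PSC4 replicate 1 and 10 without control PSC5 replicate 1, but 19 (0 lower) without all 3 libraries labelled PSC4 replicate 1. It was 2 in PSC4 alone, 0 in PSC5 alone (edgeR, adjusted p under 0.05), 4 with medium T6 alone and 11 with medium T8 alone.

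Set directly against TGF-beta, CM had lower levels of many supply genes and higher levels of some stress genes. There were 5 members called higher (Stc2, Cebpb, Atf3, Ddit3 and Slc38a2) and 20 lower, against 17.8% and 17.5% of all tested genes, with a median of -0.36. With the replicate block these were 6 and 30, against 22.0% and 21.4% of all genes, with Sesn2 added as higher and Chac1, Psph, Shmt2, Slc7a1, Slc1a5, Sars, Nars, Mars1, Tars and Lars as lower. The count of 20 was 13 without the CM library PSC4 replicate 2, 30 without the libraries labelled PSC4 replicate 1 and 8 with medium T8 alone. The widest gaps upward were Stc2 (2.94, SE 0.25, edgeR adjusted p 8.25e-07) and Cebpb (1.84, SE 0.20). The widest downward were Slc7a3 (-1.62, SE 0.26, edgeR adjusted p 0.000218), Pycr1 (-1.43) and Vldlr (-1.31). Next in the same classes were Slc1a4 (-1.13), Gpt2 (-1.16) and Trib3 and Ddit4 (both -0.73), and of the synthetases Gars (-0.57) and Cars (-0.44) differed most. These comparisons share libraries (the 3 against control share the control group, and CM enters 3 of the 5), so they are not independent of each other.

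The regulators come first. Atf4 itself (ENSMUSG00000042406, chromosome 15, 80255184 to 80257541, plus strand, on GRCm38 like all positions here) measured 309, 244, 262, 280.4 and 281 CPM in control, with the libraries of a group given as PSC4 and then PSC5 in order of replicate number. It measured 305, 357, 329 and 376 CPM with TGF-beta, 409, 326, 393 and 354 CPM in CM, and 1002, 649, 739.6 and 832 CPM with neratinib. All 4 neratinib libraries were above every other library, the CM libraries were above all control libraries, and the TGF-beta range overlapped that of control. Atf4 mRNA rose 2.92-fold with CM plus neratinib against control (log2 fold change 1.55, SE 0.12, edgeR adjusted p 8.64e-07) and 2.18-fold against CM (log2 fold change 1.12, SE 0.12, edgeR adjusted p 8.96e-05). The rises in CM (0.43, SE 0.12, edgeR adjusted p 0.0252) and with TGF-beta (0.31, SE 0.12, edgeR adjusted p 0.0442) were smaller and close to the threshold. The CM call of Atf4 was lost without either replicate 1 library of CM or without control PSC4 replicate 2 or either PSC5 control, and the TGF-beta call held with only 2 of 9 libraries left out (control PSC4 replicate 1 and TGF-beta PSC4 replicate 2).

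Trib3 (ENSMUSG00000032715, chromosome 2, 152337422 to 152344032, minus strand) encodes a pseudokinase that is induced by ATF4 and CHOP and restrains AKT and ATF4 itself. It measured 15.5, 12.6, 9.87, 16.2 and 15.99 CPM in control, 38.1, 37.6, 41.6 and 47.6 CPM with TGF-beta, 28.2, 16.1, 29.99 and 25.1 CPM in CM and 176, 104, 104 and 163 CPM with neratinib. Every neratinib library was above every other library, and CM alone overlapped control, through its PSC4 replicate 2 library. Against control Trib3 had the largest change of all 44 members (9.69-fold, log2 fold change 3.28, SE 0.20, edgeR adjusted p 1.89e-07). It rose with neratinib against CM (log2 fold change 2.47, SE 0.21, edgeR adjusted p 1.52e-05), with TGF-beta (1.54, edgeR adjusted p 2.61e-05) and in CM (0.80, edgeR adjusted p 0.0156), and was lower in CM than with TGF-beta (-0.73, edgeR adjusted p 0.0117). Its call in CM against control was lost without either replicate 1 library of CM.

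Chac1 (ENSMUSG00000027313, chromosome 2, 119351229 to 119354381, plus strand), which encodes an enzyme that breaks down glutathione, followed the same order. Its levels were 14.1, 11.5, 11.7, 12.5 and 12.9 CPM in control, 21.04, 23.2, 22.9 and 28.4 CPM with TGF-beta, 17.4, 16.3, 18.7 and 15.6 CPM in CM and 97.5, 47.9, 47.8 and 75.2 CPM with neratinib. No 2 groups overlapped. It was 3.95-fold higher with neratinib than in CM (log2 fold change 1.98, SE 0.19, edgeR adjusted p 4.82e-05), rose with TGF-beta (log2 fold change 0.93, SE 0.18, edgeR adjusted p 0.000883), and did not pass the test in CM (0.44, edgeR adjusted p 0.124). Its difference between CM and TGF-beta (-0.49) did not pass the test in the main fit (edgeR adjusted p 0.0562). It was called in 6 of 22 alternative fits, among them the replicate block (edgeR adjusted p 0.0112) and DESeq2.

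Ddit3, the gene of the pro-apoptotic factor CHOP, moved less than Trib3 or Chac1. Its levels were 62.6, 58.3, 52.9, 70.6 and 62.02 CPM in control, 51.2, 47.6, 49.7 and 47.5 CPM with TGF-beta, 80.7, 48.4, 79.1 and 78.9 CPM in CM and 127, 84.1, 101 and 123 CPM with neratinib. Its TGF-beta libraries were all below control without passing the test (-0.33, edgeR adjusted p 0.0739), and 1 CM library, PSC4 replicate 2, was below control as well. Ddit3 was called lower with TGF-beta in 5 of 21 alternative fits, among them the fit without the libraries labelled PSC4 replicate 1. With neratinib it rose by 0.61 over CM (SE 0.15, edgeR adjusted p 0.0103) and by 0.82 over control (edgeR adjusted p 0.000391). Exons of Ddit3 and Mars1 overlap on opposite strands, and reads from the shared stretch cannot be told apart without strand, which the sources used here do not state.

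Several stress genes departed from the order seen in the supply genes. Atf3, an immediate-early factor that many stresses induce, measured 7.23, 10.9, 11.1, 9.05 and 9.61 CPM in control, 5.26, 4.98, 9.33 and 6.67 CPM with TGF-beta, 15.4, 17.3, 16.5 and 15.8 CPM in CM and 29.3, 16.4, 15.8 and 14.8 CPM with neratinib. With TGF-beta Atf3 was lower without passing the test (-0.55, SE 0.22, edgeR adjusted p 0.0657), and it was called lower in 7 of 21 alternative fits. It rose in CM (log2 fold change 0.76, SE 0.22, edgeR adjusted p 0.0302), a call lost with 6 of 9 libraries left out (all but CM PSC5 replicate 2 and control PSC4 replicates 2 and 3), and neratinib added no change that passed the test (0.23, SE 0.23, edgeR adjusted p 0.51); that small difference rested on the library labelled PSC4 replicate 1, at 29.3 CPM, and was -0.07 without it. Cebpb, a bZIP factor of the acute phase response that also pairs with ATF4, measured 89.1, 102, 112, 72.3 and 81.1 CPM in control and 53.99, 63.7, 49.4 and 51.3 CPM with TGF-beta, below every control library. In CM it was at 180.1, 214, 251 and 134 CPM and with neratinib at 216, 197, 286 and 166 CPM, 2 overlapping ranges above control. Cebpb fell with TGF-beta (log2 fold change -0.72, SE 0.18, edgeR adjusted p 0.00566), rose in CM (log2 fold change 1.11, SE 0.18, edgeR adjusted p 0.00141), and did not pass the test for neratinib within CM (0.16, SE 0.19).

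Stc2, the gene of the secreted glycoprotein stanniocalcin 2, had the widest spread between TGF-beta and CM. It measured 5.29, 8.05, 9.69, 3.41 and 4.15 CPM in control, 3.34, 4.05, 2.06 and 3.42 CPM with TGF-beta, 19.9, 29.4, 28.7 and 19.4 CPM in CM and 44.1, 47.9, 38.6 and 36.9 CPM with neratinib. Every CM library was above every control and TGF-beta library, and every neratinib library above every CM library. It rose 4.27-fold in CM (log2 fold change 2.10, SE 0.23, edgeR adjusted p 7.08e-05), fell with TGF-beta (log2 fold change -0.85, SE 0.24, edgeR adjusted p 0.0112), and rose further with neratinib (log2 fold change 0.76, SE 0.23, edgeR adjusted p 0.0289). Vldlr, a lipoprotein receptor gene and ATF4 target, went the other way in CM. It was at 44.2, 29.4, 25.4, 47.9 and 39.2 CPM in control, 64.8, 61.9, 67.03 and 32.4 CPM with TGF-beta, 25.9, 19.1, 20.5 and 25.4 CPM in CM and 150.5, 140.4, 89.97 and 151 CPM with neratinib. Its mean was the lowest of the 4 groups in CM and the highest with neratinib, and it had the largest neratinib effect of all members within CM (5.84-fold against CM, log2 fold change 2.55, SE 0.26, edgeR adjusted p 6.25e-05). Vldlr differences from control with TGF-beta (edgeR adjusted p 0.0504) and in CM (edgeR adjusted p 0.0593) were not called in the main fit. Both were called with the replicate block.

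The other 5 stress members rose with neratinib. Sesn2, a leucine sensor gene that restrains mTORC1, measured 81.3, 54.2, 46.1, 77.9 and 84.4 CPM in control, 39.9, 41.03, 54.6 and 59.3 CPM with TGF-beta, 68.6, 45.3, 63.99 and 71.6 CPM in CM and 135, 105, 128 and 147 CPM with neratinib. It fell with TGF-beta (log2 fold change -0.54, SE 0.15, edgeR adjusted p 0.012) and rose over CM with neratinib (log2 fold change 1.05, SE 0.16, edgeR adjusted p 0.000769). Ddit4, the gene of the mTORC1 inhibitor REDD1, rose in all 3 treated groups, from 63.6, 43.1, 41.5, 58.4 and 61.5 CPM in control to 109, 112, 149 and 122 CPM with TGF-beta, 69.4, 68.1, 84.5 and 75.4 CPM in CM and 155, 131, 157 and 135 CPM with neratinib. The changes against control were 1.18, 0.45 and 1.42 (edgeR adjusted p 2.34e-06, 0.0181 and 1.41e-06), and no group overlapped control. Nupr1, a small chromatin factor of pancreatic stress, also rose in all 3 (0.78, 0.64 and 1.11), as did Cebpg, a C/EBP partner of ATF4 (0.32, 0.28 and 0.63). Atf5, an ATF4 relative that guards mitochondrial protein folding, was called in both neratinib comparisons and in none of the other 3 (1.21 against control and 0.92 against CM), and its exons overlap those of Nup62 and Il4i1 on the other strand.

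**Figure D2:**
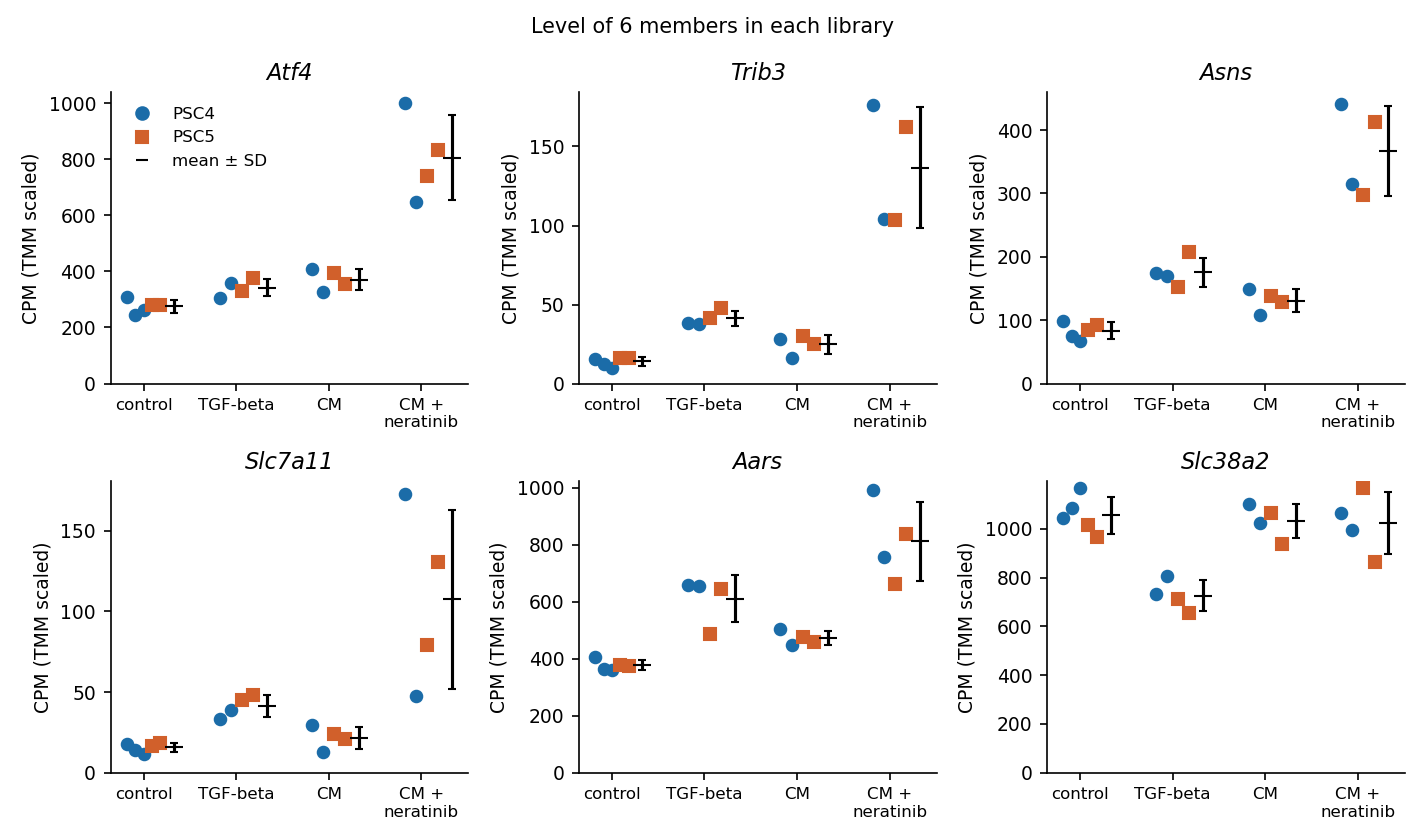
CPM (y axis, linear from 0) of Atf4, Trib3, Asns, Slc7a11, Aars and Slc38a2 in each of the 17 libraries by medium (x axis), PSC4 as circles and PSC5 as squares, with mean ± SD to the right of each group. The 4 neratinib libraries stand above all others for Atf4, Trib3, Asns and Aars, and Slc38a2 is low with TGF-beta and level elsewhere.

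Among the synthesis enzymes, Asns (ENSMUSG00000029752, chromosome 6, 7675169 to 7693254, minus strand), which makes asparagine from aspartate, had the largest fitted change with CM plus neratinib against control, next to Pycr1 (2.12). It measured 99.4, 75.1, 66.6, 84.1 and 93.01 CPM in control, 174, 169.7, 152 and 207 CPM with TGF-beta, 149.7, 107, 138 and 128 CPM in CM and 441, 315, 298 and 413 CPM with neratinib. No 2 groups overlapped. Asns rose 4.38-fold with CM plus neratinib (log2 fold change 2.13, SE 0.15, edgeR adjusted p 5.26e-07), 2.1-fold with TGF-beta (log2 fold change 1.07, SE 0.15, edgeR adjusted p 4.7e-05) and 1.56-fold in CM (log2 fold change 0.64, SE 0.15, edgeR adjusted p 0.0109). Neratinib raised it 2.81-fold within CM (log2 fold change 1.49, SE 0.16, edgeR adjusted p 7.05e-05).

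The 3 enzymes of the serine pathway rose with neratinib over CM. Phgdh, the first enzyme from glycolysis to serine, measured 288, 211, 205, 259 and 268 CPM in control, 288, 267, 262 and 357 CPM with TGF-beta, 313, 248, 259 and 297 CPM in CM and 843, 554, 500.1 and 801 CPM with neratinib. Only the neratinib group lay wholly above control, 2.42-fold above CM (log2 fold change 1.27, SE 0.17, edgeR adjusted p 0.000362). Psat1, the second enzyme, behaved likewise, at 323, 229, 209, 286 and 304 CPM in control, 339.6, 339.8, 319 and 375 CPM with TGF-beta, 359, 256, 321 and 338 CPM in CM and 733, 555, 539 and 732 CPM with neratinib (2.01-fold against CM, log2 fold change 1.01, SE 0.15, edgeR adjusted p 0.000578). With TGF-beta neither was called (Psat1 0.34, edgeR adjusted p 0.0641; Phgdh 0.25, edgeR adjusted p 0.239), and both were called with the replicate block (edgeR adjusted p 0.000974 and 0.00788). Psph, the last enzyme, rose with TGF-beta (0.75, edgeR adjusted p 0.00104) and with neratinib over CM (1.61, edgeR adjusted p 5.01e-05), from 39.01, 28.9, 33.1 and 36.5 CPM in CM to 135, 81.7, 80.6 and 121 CPM.

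The mitochondrial folate enzymes, which turn serine into one-carbon units, were called higher in every treated group, Mthfd2 less firmly in CM. Shmt2 went from 189.9, 157, 147, 189.6 and 192 CPM in control to 285, 288, 295 and 411 CPM with TGF-beta, 300.4, 234, 312 and 269 CPM in CM and 793, 482, 536 and 682 CPM with neratinib. No treated library of Shmt2 reached down to the control range, and the changes were 0.85, 0.66 and 1.82 (edgeR adjusted p 0.000342, 0.00976 and 1.41e-06). Mthfd2 went from 96.6, 82.6, 75.7, 89.3 and 101 CPM in control to 149, 166, 141 and 190.4 CPM with TGF-beta, 126, 100.2, 127 and 124 CPM in CM and 336, 224, 248 and 312 CPM with neratinib. Its CM range touched control through PSC4 replicate 2, and its changes were 0.85, 0.41 and 1.65 (edgeR adjusted p 9.28e-05, 0.0425 and 8.74e-07). The Mthfd2 call in CM held with only 2 of 9 libraries left out (CM PSC4 replicate 2 and control PSC4 replicate 1) and was lost in the other 7 fits.

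The proline and transaminase genes were called higher with TGF-beta and with neratinib, and were not called in CM against control. Pycr1, which makes proline in mitochondria, measured 18.6, 12.3, 9.90, 16.7 and 15.9 CPM in control, 33.3, 29.2, 38.3 and 37.6 CPM with TGF-beta, 13.8, 10.5, 12.4 and 14.5 CPM in CM and 86.4, 40.9, 41.2 and 88.4 CPM with neratinib. CM lay inside the control range, and Pycr1 had the largest neratinib effect of the class (5.02-fold against CM, log2 fold change 2.33, SE 0.26, edgeR adjusted p 8.96e-05). It rose with TGF-beta (log2 fold change 1.22, SE 0.24, edgeR adjusted p 0.000857) and was lower in CM than with TGF-beta (-1.43, edgeR adjusted p 0.000502). Aldh18a1, which makes the proline precursor pyrroline-5-carboxylate from glutamate, stood between 258 and 265 CPM with TGF-beta and between 251 and 328 CPM with neratinib, against 118 to 134 CPM in control (1.04 and 1.14). Gpt2, a mitochondrial alanine aminotransferase, measured 35.02, 43.6, 39.6, 36.3 and 38.4 CPM in control, 106, 112, 94.8 and 103 CPM with TGF-beta, 48.1, 48.8, 44.3 and 45.3 CPM in CM and 169, 148, 106 and 158 CPM with neratinib. It had the largest TGF-beta effect of the class (2.72-fold, log2 fold change 1.44, SE 0.10, edgeR adjusted p 5.62e-08), and its change in CM did not pass the test (0.29, edgeR adjusted p 0.0602, and 0.0399 with the replicate block). Got1, the cytosolic aspartate aminotransferase, changed least of these 4 genes, by 0.57 with TGF-beta and 0.51 with CM plus neratinib.

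Of the transporters, Slc7a11 (ENSMUSG00000027737, chromosome 3, 49892526 to 50443614, minus strand), the cystine importer that feeds glutathione synthesis, rose most against control. It measured 17.8, 14.02, 11.5, 16.3 and 18.7 CPM in control, 33.1, 38.9, 45.3 and 48.3 CPM with TGF-beta, 29.4, 12.8, 23.8 and 20.7 CPM in CM and 172, 47.4, 79.2 and 130.4 CPM with neratinib. The neratinib libraries were spread widely, and the lowest of them (PSC4 replicate 2) lay under the highest TGF-beta library. Slc7a11 was 6.81-fold above control (log2 fold change 2.77, SE 0.31, edgeR adjusted p 1.69e-05) and 4.97-fold above CM (log2 fold change 2.31, SE 0.33, edgeR adjusted p 0.000533) with neratinib, and 2.61-fold above control with TGF-beta (log2 fold change 1.38, SE 0.31, edgeR adjusted p 0.00234). In CM it did not pass the test (0.46, edgeR adjusted p 0.359).

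Slc7a3, a transporter of arginine and lysine, had the largest TGF-beta effect of all 44 members. It measured 3.82, 4.54, 3.56, 4.02 and 3.94 CPM in control, 15.8, 14.8, 12.4 and 12.3 CPM with TGF-beta, 5.78, 4.27, 4.51 and 3.49 CPM in CM and 35.03, 16.3, 11.02 and 26.6 CPM with neratinib. TGF-beta raised it 3.51-fold (log2 fold change 1.81, SE 0.24, edgeR adjusted p 4.03e-05) and neratinib 4.91-fold over CM (log2 fold change 2.30, SE 0.26, edgeR adjusted p 0.000108), whereas CM overlapped control (0.20, edgeR adjusted p 0.647).

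The leucine transporter is a pair of proteins, the amino acid exchanger LAT1 (Slc7a5) and its heavy chain 4F2hc (Slc3a2), which also pairs with the cystine importer. Slc7a5 measured 166, 137, 120.2, 129 and 141 CPM in control, 252, 296, 185 and 230.2 CPM with TGF-beta, 176, 126, 137 and 147 CPM in CM and 312, 294, 276 and 345 CPM with neratinib. It rose with TGF-beta (log2 fold change 0.80, SE 0.12, edgeR adjusted p 0.000141) and with neratinib over CM (log2 fold change 1.07, SE 0.13, edgeR adjusted p 0.000202). Slc3a2 measured 163, 183, 184, 158 and 151 CPM in control, 215, 236, 164 and 198 CPM with TGF-beta, 195, 190.4, 189.8 and 177 CPM in CM and 653, 423, 379 and 459 CPM with neratinib. Its TGF-beta range overlapped control (0.29, edgeR adjusted p 0.0443), a call that of 9 fits with 1 library left out held only without TGF-beta PSC5 replicate 1, and its main change was with neratinib (2.53-fold over CM, log2 fold change 1.34, SE 0.12, edgeR adjusted p 1.58e-05).

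Slc7a1, another arginine transporter, and Slc6a9, the glycine transporter GLYT1, were the 2 transporters called in CM (0.44 and 0.51, edgeR adjusted p 0.0444 and 0.0172). Both calls were lost without either replicate 1 library of CM, and that of Slc7a1 also without any 1 control library except that labelled PSC4 replicate 1. Both rose over CM with neratinib (1.29 and 1.15), from 150.1, 113, 152 and 122 to 433, 259.8, 281 and 339.9 CPM for Slc7a1. The neutral amino acid exchangers Slc1a4 and Slc1a5 rose by 1.47 and 0.94, and by 0.87 and 0.32 with TGF-beta, and neither was called in CM against control. Slc1a4 measured 59.6, 63.6, 65.4 and 61.9 CPM with TGF-beta and 33.03, 20.5, 29.9 and 31.5 CPM in CM, without overlap (log2 fold change -1.13 for CM against TGF-beta, edgeR adjusted p 0.000189).

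Slc38a2 (ENSMUSG00000022462, chromosome 15, 96687392 to 96699730, minus strand), the glutamine and alanine transporter SNAT2, is a textbook gene of amino acid starvation and was the single member not called higher with CM plus neratinib against control. It measured 1045, 1086, 1165, 1014 and 964 CPM in control, 734, 806, 711 and 654 CPM with TGF-beta, 1099.8, 1025, 1062 and 937 CPM in CM and 1066, 993, 1169 and 864 CPM with neratinib. The control, CM and neratinib ranges overlapped, and every TGF-beta library was below every other library. The log2 fold changes were -0.03 for CM plus neratinib against control (SE 0.08, edgeR adjusted p 0.791) and -0.01 against CM (SE 0.09, edgeR adjusted p 0.95). With TGF-beta Slc38a2 fell (log2 fold change -0.53, SE 0.08, edgeR adjusted p 0.000179).

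The 12 cytosolic tRNA synthetase members, enzymes that load amino acids onto tRNA, moved within a narrow band. Aars (ENSMUSG00000031960, chromosome 8, 111033144 to 111057664, plus strand), the alanine enzyme, measured 405, 363, 362, 378 and 375 CPM in control, 657, 654, 488 and 643 CPM with TGF-beta, 503, 448, 478 and 458 CPM in CM and 990.5, 757, 662 and 838 CPM with neratinib. The neratinib and CM groups did not overlap, and 1 TGF-beta library (PSC5 replicate 1) fell to the level of CM. Aars rose 2.17-fold with CM plus neratinib against control (log2 fold change 1.12, SE 0.10, edgeR adjusted p 3.18e-06) and 1.72-fold over CM (log2 fold change 0.78, SE 0.11, edgeR adjusted p 0.000444), and by 0.70 with TGF-beta (edgeR adjusted p 7.51e-05). An exon of Aars overlaps Exosc6 on the same strand. Wars, the tryptophan enzyme, which interferon also induces, measured 54.7, 49.4, 49.6, 54.02 and 50.9 CPM in control, 69.6, 66.8, 51.2 and 70.8 CPM with TGF-beta, 58.8, 55.2, 58.4 and 57.4 CPM in CM and 137, 83.2, 80.2 and 148 CPM with neratinib. It was not called with TGF-beta (0.32, edgeR adjusted p 0.127) or in CM (0.15, edgeR adjusted p 0.573), and rose over CM with neratinib (log2 fold change 0.97, SE 0.17, edgeR adjusted p 0.00199). The libraries labelled PSC4 replicate 1 and PSC5 replicate 2 were well above the other pair.

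Against CM the neratinib effect of the 12 synthetases ranged from 0.64 (Eprs) to 0.99 (Gars), and none of them doubled. Gars and Sars, the glycine and serine enzymes, rose most (0.99 and 0.99, edgeR adjusted p 0.000472 and 0.00133). Gars went from 223, 196, 221 and 217 CPM in CM to 529, 340.0, 348 and 481 CPM with neratinib. Against control Nars and Sars had the largest rise (1.26 and 1.25). With TGF-beta the range was 0.32 (Wars) to 0.84 (Cars), 10 of 12 were called and Wars and Nars were not. Cars and Gars had the largest TGF-beta effect (0.84 and 0.82, edgeR adjusted p 1.79e-05 and 0.000167). In CM against control 3 of 12 passed the test, Cars (0.40), Aars (0.34) and Yars (0.28), and all 12 estimates were positive. The Aars call held with 1 of 9 libraries left out (CM PSC4 replicate 2), and the Cars call was lost without either replicate 1 library of CM.

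The other tRNA synthetases gave a comparison that the list did not choose for its response to ATF4. Of 8 other cytosolic synthetases, 2 were higher with neratinib than in CM, Rars (0.70, SE 0.23) and Farsb (0.69, SE 0.14), and 0 were lower (edgeR, 3 higher and 0 lower at an unadjusted p under 0.05). Their median was 0.19, against 0.80 for the 12 members. Of 17 mitochondrial synthetases, encoded by separate nuclear genes, 1 was higher (Iars2, 0.19) and 1 lower (Mars2, -0.33), with a median of 0.03. Of all tested genes 10.8% were higher and 9.63% lower in this comparison, so the mitochondrial counts did not exceed those shares. With TGF-beta the medians of these 3 groups were 0.64, 0.10 and -0.11. The lists were made with earlier results of these data known, so these are descriptions, with no test between the groups.

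**Figure D3:**
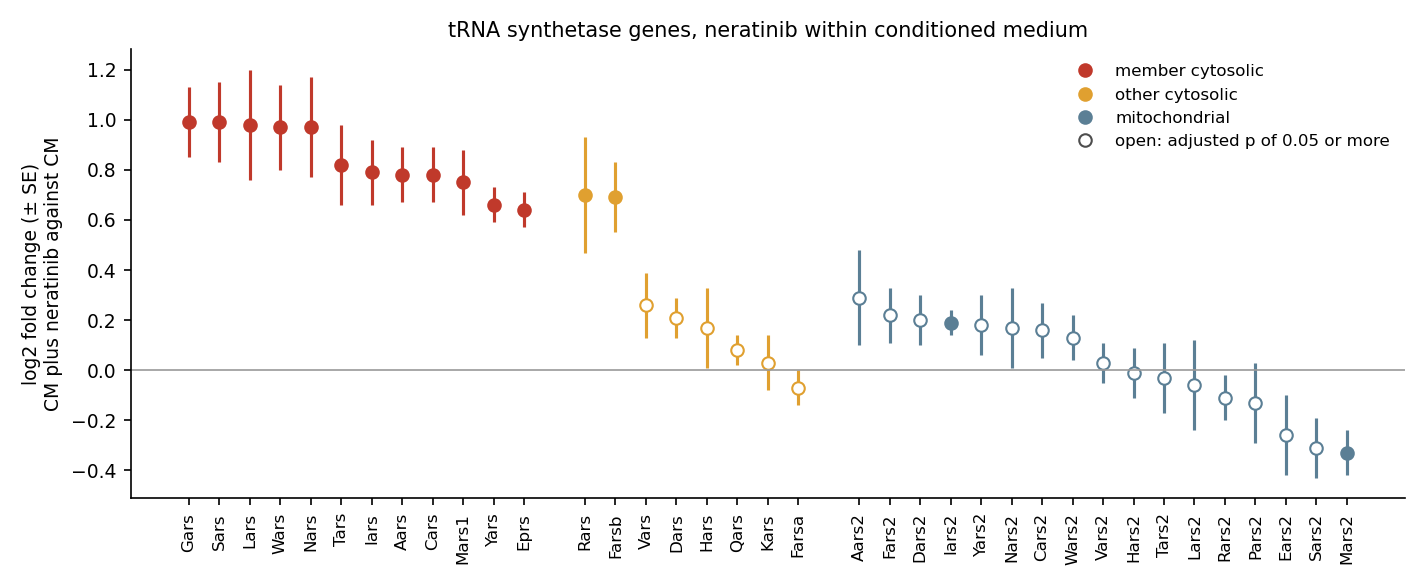
Fitted log2 fold change (y axis, ± SE) of CM plus neratinib against CM for 12 member, 8 other cytosolic and 17 mitochondrial tRNA synthetase genes (x axis, in order of size within a group); filled points passed an edgeR adjusted p of 0.05. The member points lie between 0.64 and 0.99, and only Rars and Farsb among the other cytosolic genes come near them.

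The classes were compared by their medians and counts. With TGF-beta the class medians were 0.85 for synthesis enzymes (8 of 10 higher, 0 lower), 0.80 for transporters (8 of 9 higher, 1 lower), 0.64 for synthetases (10 of 12 higher, 0 lower) and 0.31 for stress genes (6 of 13 higher, 3 lower). In CM they were 0.26 (3 of 10 higher), 0.19 (2 of 9), 0.27 (3 of 12) and 0.44 (8 of 13). With CM plus neratinib against control they were 1.74 (10 of 10 higher), 1.53 (8 of 9), 1.13 (12 of 12) and 1.27 (13 of 13). For neratinib within CM they were 1.25 (10 of 10), 1.29 (8 of 9), 0.80 (12 of 12) and 0.92 (11 of 13). Between CM and TGF-beta the median was 0.12 for stress genes (4 higher, 3 lower), -0.43 for synthesis enzymes (0 higher, 6 lower), -0.47 for transporters (1 higher, 5 lower) and -0.36 for synthetases (0 higher, 6 lower). The 3 of 13 stress genes lower with TGF-beta, and the 3 of 13 lower in CM against TGF-beta, were near the shares of all tested genes. The counts of 0 lower with TGF-beta and of 0 higher in CM against TGF-beta were also 0 at an unadjusted p under 0.05 (edgeR) for synthesis enzymes and synthetases.

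The classes were then read within each library. In each library the log2 ratio of every member to the mean of the control libraries of the same line was taken, and the class median of these ratios was compared. Stress genes had the lowest class median in 4 of 4 TGF-beta libraries (0.07 to 0.40, against 0.71 to 1.01 for synthesis enzymes) and the highest in 4 of 4 CM libraries (0.33 to 0.52, against 0.01 to 0.40 for transporters). In 4 of 4 neratinib libraries synthesis enzymes had the highest median (1.36 to 2.05) and synthetases the lowest (0.80 to 1.48). Control libraries lay between -0.18 and 0.24 in all classes, and in the supply classes no TGF-beta or neratinib library reached down to them. CM overlapped control there, but for synthesis enzymes and synthetases only through the control library labelled PSC4 replicate 1 (0.24 in both), which also enters the PSC4 control mean. The other control libraries did not exceed 0.02 in the supply classes, and the lowest CM library was at 0.14 for synthesis enzymes, 0.12 for synthetases and 0.01 for transporters.

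**Figure D4:**
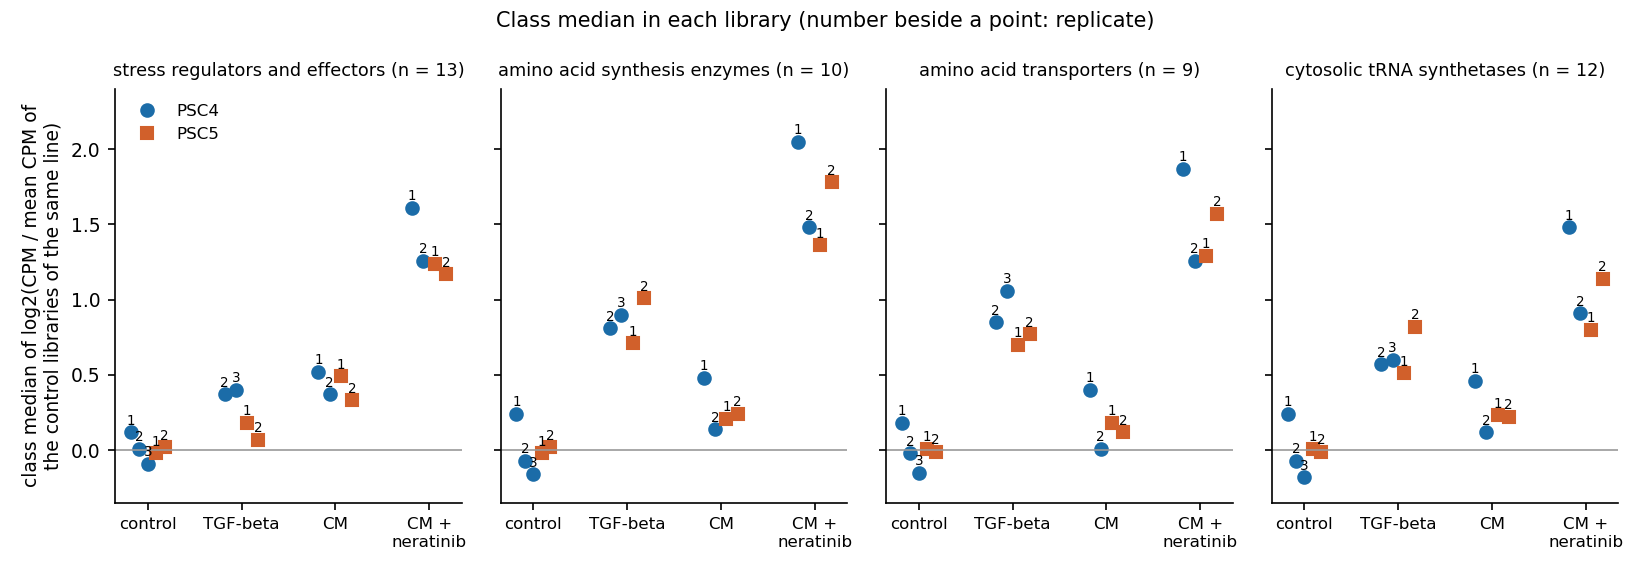
Median over the members of a class of the log2 ratio of CPM to the mean control CPM of the same line (y axis), in each library by medium (x axis), PSC4 as circles and PSC5 as squares, the replicate number beside each point. With TGF-beta stress genes stood at 0.07 to 0.40 and synthesis enzymes at 0.71 to 1.01. The neratinib libraries were above all others in each class except the synthetases. There the highest TGF-beta library (0.82) lay above the lowest neratinib library (0.80).

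Each neratinib library has a CM library of the same line, replicate number and medium code, and the ratio within these 4 pairs was examined. In all 4 pairs 41 of 44 members were higher with neratinib, and Atf3, Cebpb and Slc38a2 were not. That count was made over the members only, with no share of all genes beside it. The median log2 ratio over the members was 1.17 in the pair labelled PSC4 replicate 1, 0.97 in PSC4 replicate 2, 0.76 in PSC5 replicate 1 and 1.12 in PSC5 replicate 2. The synthetases had medians of 1.00, 0.76, 0.53 and 0.90 in the same order, and in PSC5 replicate 1 all 12 lay between 0.46 and 0.65. Epithelial markers differed widely over these pairs: their 10 genes summed to 8.46 CPM in CM and 3.45 CPM with neratinib in the first pair, 156 and 126 CPM in the second, 27.2 and 41.2 CPM in the third and 137 and 311 CPM in the fourth. Over all 4 pairs neither the CM nor the neratinib sums followed the order of the medians. Without the pair labelled PSC4 replicate 1 the neratinib sums did, and the CM sums did not. The part of these markers in the ratios was not tested.

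**Figure D5:**
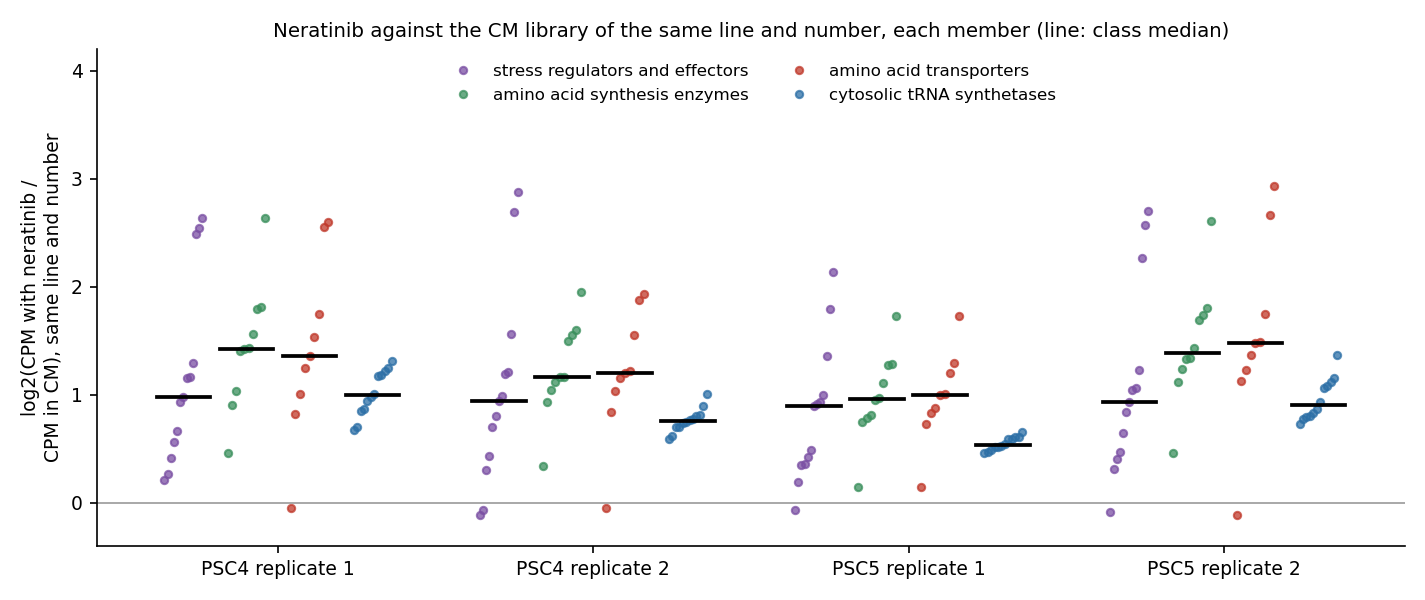
Log2 ratio of CPM with neratinib to CPM in CM (y axis) for each member in the 4 pairs of the same line and replicate number (x axis), coloured by class, with the class median as a line. Synthetases form the narrowest cluster in each pair, and the points at or below 0 are Atf3, Cebpb and Slc38a2.

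The neratinib libraries fell into an order that neither line nor medium code follows. The library labelled PSC4 replicate 1 was the highest of the 4 for 30 of 44 members, and PSC4 replicate 2 was the lowest for 21 and PSC5 replicate 1 for 17. The pair formed by PSC4 replicate 1 and PSC5 replicate 2 held the top 2 places for 36 of 44 members: 10 of 10 synthesis enzymes, 12 of 12 synthetases, 8 of 9 transporters and 6 of 13 stress genes. Atf4 itself was highest in the same 2 libraries (1002 and 832 CPM). In one of them the 10 epithelial markers summed to 3.45 CPM, below the whole control range, and in the other to 311 CPM, the highest of all libraries. In the CM group CM PSC4 replicate 2, with the highest sum of that group, was the lowest CM library for 33 of 44 members. Control PSC4 replicate 3 was likewise the lowest control library for 30 of 44 members, with the epithelial markers at 6.63 CPM in sum. All these ranks were counted over the members only, with no share of all genes beside them, so they cannot be read as particular to the members. The part of these markers in the spread of the members was not tested.

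Whether a treatment acted differently in PSC4 and PSC5 was asked with an interaction term. None of the 13923 genes was called for any of the 4 contrasts (0.0% in each, edgeR), so no member was. At an unadjusted p under 0.05, 1 member differed between the lines for CM against control and 0 for the other 3 contrasts. The fitted change had the same sign in both lines for 43 of 44 members with TGF-beta, in CM and with CM plus neratinib against control, and for 42 for neratinib against CM. With the libraries labelled PSC4 replicate 1 counted as PSC5, 0 to 7 members passed the unadjusted p in the 4 contrasts and 0 were called. An absent call does not show that the lines respond alike.

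Genes around the members were read beside the share of all tested genes called, which for neratinib within CM was 10.8% higher and 9.63% lower. Of 10 further ATF4 targets, 9 were higher with neratinib than in CM and 0 lower (edgeR, with the same counts at an unadjusted p under 0.05), with a median of 1.47. Cth, which makes cysteine from cystathionine, went from 29.1 to 122 CPM (log2 fold change 2.08, SE 0.21, edgeR adjusted p 6.25e-05), Aldh1l2, a mitochondrial folate enzyme, from 114 to 364 CPM (1.68), Pck2 from 83.9 to 202 CPM (1.26) and the translation inhibitor Eif4ebp1 from 90.9 to 228 CPM (1.33). With TGF-beta 8 of the 10 were higher and 1 was lower: Cth and Aldh1l2 rose by 1.23 and 1.32, and Gdf15, a stress hormone gene, fell from 10.5 to 4.49 CPM (-1.23). Gdf15 rose by 1.61 with neratinib over CM. Xpot, which carries tRNA out of the nucleus, rose by 1.24 with CM plus neratinib over control.

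Of 13 genes of the unfolded protein response in the endoplasmic reticulum, 3 were higher and 5 lower with neratinib than in CM, with a median of -0.07. The shares of all tested genes were 10.8% and 9.63%. Against control 4 were higher and 0 lower in CM (8 and 0 at an unadjusted p under 0.05, edgeR), against 7.05% and 7.14% of all tested genes. With CM plus neratinib 5 were higher and 3 lower than in control, against 22.2% and 20.9% of all tested genes. For neratinib within CM Herpud1 had the largest rise (0.98), and the chaperone and folding genes Hspa5 (-0.22), Hsp90b1 (-0.29), Pdia4 (-0.29) and Calr (-0.41) were lower. Of 16 genes for eIF2, its kinases, its exchange factor and its phosphatase subunits, 5 were higher and 2 lower. Eif2ak2, the interferon-induced kinase PKR, fell from 268 to 113 CPM (log2 fold change -1.30, SE 0.19, edgeR adjusted p 0.00058), Eif2ak3 (PERK) was at -0.33 and Eif2ak4 (GCN2) at 0.13 (edgeR adjusted p 0.162). Ppp1r15a, the gene of the ATF4-induced phosphatase subunit GADD34, rose by 0.70 over CM and 1.06 over control (edgeR adjusted p 0.000538).

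Slc7a11 and Chac1 bear on glutathione, and genes of the NRF2 antioxidant response, which also includes Slc7a11, were read beside them. With neratinib 8 of 10 were higher than in CM and 0 lower (edgeR, with the same counts at an unadjusted p under 0.05), with a median of 0.61. Hmox1 rose from 169 to 827 CPM (SD 536 with neratinib, log2 fold change 2.26, SE 0.30, edgeR adjusted p 0.000319) and Txnrd1 by 1.01. Both were also called higher with CM plus neratinib against control (1.99 and 1.16). Nqo1 fell in CM from 31.8 to 15.4 CPM (-1.04, edgeR adjusted p 0.0236). It rose by 1.25 over CM with neratinib, to 36.7 CPM (SD 19.5), near its control level. With TGF-beta 1 of the 10 was higher and 2 were lower, near the share of all genes (19.7% and 20.5%). Hmox1 was one that fell (-1.17, edgeR adjusted p 0.00385).

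Amino acid enzymes and transporters outside the member list were read the same way. Of 17 other one-carbon, proline and glutamate enzymes, 2 were higher, among them Mthfd1l (0.45), and 2 lower than in CM, near the share of all genes, with a median of 0.03. Of 14 other plasma membrane amino acid transporters tested (of 18), 1 was higher, Slc38a1 (0.66), and 2 lower, Slc1a3 (-2.18) and Slc36a4 (-0.48), with a median of -0.46. With TGF-beta 5 of these 14 were higher, among them Slc7a2 (1.16) and Slc16a10 (1.19), where 19.7% of all tested genes were called higher and 20.5% lower. At an unadjusted p under 0.05 (edgeR) 5 of the 14 were higher and 3 lower. Slc7a2, an arginine transporter, also rose in CM, from 66.9 to 159 CPM (log2 fold change 1.25, SE 0.30, edgeR adjusted p 0.0151), where its relative Slc7a3 did not pass the test.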

How the data were processed

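RNA sequencing of 17 libraries of mouse pancreatic stellate cells was analysed from the estimated counts per gene that the authors deposited for each library. The submitters' processing notes name Salmon 1.4.0, DESeq 2, GRCm38 and mm10; strandedness was not given in the sources used here. Of the deposited estimated counts above 0, 74.8% were not whole, so they were rounded to whole counts. Genes were kept by edgeR's filterByExpr (minimum count 10, minimum total 15), which left 13923 genes and all 44 members, and were scaled by TMM. Groups were compared with edgeR 4.0.16 (quasi-likelihood test, R 4.3.3) over all 17 libraries with group and cell line as terms. P-values were adjusted by Benjamini-Hochberg over all genes tested, and a gene was called at an adjusted p under 0.05. Library totals of 22168953 to 29421447 counts gave at least 48 counts for each member in each library.

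The members and lists were chosen with earlier results of these data known. All members were accounted for: 16 members were named whatever their values, and so were, in each comparison and class, the 2 called members that rose most and the 2 that fell most, at a mean of at least 10 CPM. Context genes were named when called with a log2 change of at least 1 at a mean of at least 10 CPM; further ones named in the text were chosen after their values were seen. Libraries of the same line and replicate number deviated together from the group means (22 of 22 pairs with r above 0.1, median 0.299), so the fit with line and number as a block was read beside the results. The fit was also run on simulated data, whose results are not given and on which no statement here rests. Alternatives were that block, DESeq2 1.42.0, RLE and upper-quartile factors, other filters, no line term, one line alone, only the groups compared, the libraries labelled PSC4 replicate 1 removed or counted as PSC5, and each library left out. Media of one code alone were an alternative chosen after seeing the data. Promoter sequences were RefSeq's, on GRCm38.p6.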

Additional observations from a re-analysis of the deposited data

Results flagged for a closer look

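Within the groups, 13 of 176 checks of a member in a group of 4 or 5 libraries found 1 library far from the rest, where chance gives about 1 in 20. In CM the library PSC4 replicate 2 stood apart, low, for Ddit3 at 48.4 CPM (78.9 to 80.7 CPM in the other 3), Mthfd2 at 100.2 CPM (124 to 127), Tars at 177 CPM (234 to 241) and Lars at 115 CPM (160 to 166). This CM library also had the highest epithelial marker sum of its group, 156 CPM. Control PSC4 replicate 3, the lowest control library for 30 of 44 members (a count over the members only), had a sum of 6.63 CPM. With TGF-beta the library PSC5 replicate 2 was high for Shmt2 at 411 CPM (285 to 295 CPM in the others), Gars at 376 CPM (296 to 303) and Sars at 377 CPM (294 to 299), and low for Vldlr at 32.4 CPM (61.9 to 67.0). PSC5 replicate 1 with TGF-beta was low for Aars at 488 CPM (643 to 657) and Yars at 133 CPM (151 to 153), and high for Aldh18a1 at 265 CPM (258 to 259), where the other 3 were close together. With neratinib, Atf3 was high in the library labelled PSC4 replicate 1 at 29.3 CPM (14.8 to 16.4), and Vldlr was low in PSC5 replicate 1 at 89.97 CPM (140.4 to 151).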

How the results depend on the processing

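Of the counts and class medians recomputed, 644 stayed near their value and 30 moved; of the values for single named genes, 2264 kept direction and side of the threshold, 180 lost the call, 28 gained it, 11 changed sign and 1 motif share moved. With the replicate block the members called were 36 higher and 4 lower for TGF-beta, 21 and 2 for CM against control, and 6 and 30 for CM against TGF-beta; the neratinib counts did not change, and no member lost its call. In CM against control, DESeq2, upper-quartile factors and a fit of only the groups compared each gave 1 lower in place of 0, and counting the libraries labelled PSC4 replicate 1 with PSC5 gave 2. The higher count of 16 became 2 in PSC4 alone, 0 in PSC5 alone and 4 with medium T6, and 6 to 15 (0 to 1 lower) with each library left out. With TGF-beta, PSC4 alone gave 20 higher and a transporter median of 0.97, and PSC5 alone gave 2 lower; leaving out each library gave transporter medians of 0.72 to 0.89. Neratinib against CM had 17 higher in PSC4 alone, 14 in PSC5 alone and 25 with medium T8, with a stress median of 0.72 there and of 0.83 to 0.97 with each library left out. With medium T8 the stress median of CM plus neratinib against control was 1.48, and with T6 the transporter median of CM against control was 0.01. CM against TGF-beta had 6 lower in PSC4 alone, 9 in PSC5 alone, 8 with medium T8 and 13 to 23 with each library left out, and its stress median was -0.06 in PSC4 alone and -0.01 with T6. The longer motif was in 13.5% of members in place of 40.5%. Sign changed for uncalled values only: CM against control with T6 for Slc7a3 (-0.03) and Slc7a5 (-0.01); neratinib against CM for Atf3 (-0.08 without the libraries labelled PSC4 replicate 1 and with T6, -0.07 in PSC5 alone, and -0.07 to 0.35 with each library left out, lowest without the neratinib library labelled PSC4 replicate 1); and CM against TGF-beta for Atf4 (-0.01 with T6), Nupr1 (0.03) and Slc3a2 (0.01) in PSC5 alone, and Phgdh (0.01 in PSC4 alone, and -0.15 to 0.04 with each library left out, highest without TGF-beta PSC5 replicate 2). Smaller fits have fewer libraries, and the share of all genes called in them is not given. The cause of the other changes was not tested.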
